A study of Mus musculus with 12 samples.

Results

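The cytosolic chaperones and heat shock proteins were followed in mouse embryonic stem cells (line ES-E14TG2a) in which eRF1, the factor that ends translation at stop codons, carries a dTAG tag through which the compound dTAG-13 directs it to degradation. Members were taken by gene symbol. The rule covered the Hspa, Hspb, Hspd, Hspe, Hsph and Hsp90a genes, the Dnaja, Dnajb and Dnajc genes, Tcp1 with Cct2 to Cct8, the Pfdn genes, Bag1 to Bag6, Hsf1 and Hsf2. It left out Hspa5, Hsp90b1, Dnajb9, Hspg2 and symbols ending in -ps. This gave 94 of 22034 symbols in the footprint table and 95 of 49997 in the RNA table, which alone lists Hspb11. By family there were 28 DNAJC, 12 DNAJB, 4 DNAJA, 12 HSP70, 2 HSP90, 1 HSP110, 10 TRiC/CCT, 5 prefoldin, 6 BAG, 8 small heat shock, 3 mitochondrial chaperonin and 2 genes for proteins that bind heat shock proteins (Hspbp1 and Hspbap1), and 2 heat shock factors. Not all of them are cytosolic. Hspd1, Hspe1, Hspa9, Dnaja3 and Dnajc19 encode mitochondrial proteins, and Dnajb11, Dnajc1, Dnajc3, Dnajc10 and Hspa13 encode proteins of the endoplasmic reticulum.

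Ribosome footprints, the stretches of mRNA protected by ribosomes from RNase, were sequenced in 8 libraries. The cells were wild type or knocked out for Gcn2 (gene Eif2ak4), the kinase that senses uncharged tRNA and stalled ribosomes, and were either left untreated or exposed to dTAG-13 at 500 nM for 1 h, with 2 biological replicates (A and B) in each of the 4 groups. For wild-type cells only, poly(A) RNA of both conditions was also sequenced, with 2 replicates each and 4 libraries in all. All groups, the untreated ones included, carry tagged eRF1 and were grown with LIF plus inhibitors of GSK3 and MEK. No group with vehicle alone or without the tag was analysed here, so effects of the compound and of eRF1 loss cannot be told apart, and the labels do not say from how many clones the knockout cells came.

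Chaperones hold newly made and damaged proteins in a foldable state. HSP70 proteins bind short hydrophobic stretches, J-domain (DNAJ) proteins bring them clients and start ATP hydrolysis, and nucleotide exchange factors such as the BAG proteins and HSP110 let the client go. Prefoldin and the ring-shaped chaperonin TRiC/CCT fold actin and tubulin, HSP90 finishes kinases and receptors, small heat shock proteins hold unfolded chains, and HSF1 switches on many of these genes when unfolded protein accumulates.

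Footprint libraries held 7874804 to 19691716 counts and RNA libraries 17462458 to 24256097. The treated footprint libraries were the shallower ones in both genotypes, and the part of depth in the results was not tested. Footprints of Eif2ak4 were at 27.7 to 34.0 CPM, counts scaled to a common library total, in the wild-type libraries and at 2.33 to 5.36 in the knockout libraries, as the labels say. All 8 stem cell markers were present, with a summed level of 8803 to 9619 CPM in footprints, and 5068 to 5168 in RNA. The footprint sums compare with 2.75 to 5.59 CPM for 4 primitive endoderm and 3.92 to 9.08 for 4 fibroblast markers. In bulk libraries, fewer cells of a type and less RNA per cell cannot be told apart, and all levels are relative to the rest of the library.

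Before treatment the members held 3.92% and 4.17% of all footprint counts in the untreated wild-type libraries, against 2.35% and 2.45% of RNA counts. Much of this came from 3 genes: without Hspa8, Hsp90aa1 and Hsp90ab1 the shares were 1.76% and 1.80% of footprints and 1.36% and 1.42% of RNA. Counts are not corrected for gene length here, so levels are set side by side within a gene only. The log2 ratio of footprint CPM to RNA CPM in untreated wild type had a median of 0.10 over the 81 members measured in both assays, and of -0.43 over all 11513 genes. The ratio cancels length only where both assays were counted over the same part of the gene, and the sources used here do not say so.

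The ratio differed among the families. All 9 TRiC/CCT genes measured lay in the narrow range of 0.20 (Cct3) to 0.75 (Cct4), around a median of 0.52. The 5 prefoldin subunits ranged from 0.29 (Pfdn4) to 4.36 (Pfdn6). Hspa8, the constitutive HSP70, had 9972 and 7013 footprint CPM in replicates A and B against 416 and 400 RNA CPM, a ratio of 4.38. That placed it, with Pfdn6, Bag6 (4.91) and Dnajc19 (2.83), above the 95th percentile of all genes, which was 2.14. Hsp90aa1 stood at 2.01 and its paralog Hsp90ab1, the constitutive cytosolic HSP90, at -0.39.

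At the other end, 4 members lay below the 5th percentile of -2.61. Hsf1, the main heat shock transcription factor, had 5.30 and 6.25 footprint CPM against 63.4 and 67.4 RNA CPM, a ratio of -3.50. Hspe1, the lid of the mitochondrial chaperonin, stood at -3.22, Dnajc27 at -3.16 and the small heat shock gene Hspb6 at -2.69. The pseudogene Hspd1-ps3, left out by the rule, had 6134 to 9021 RNA counts per library. How reads fitting several genes were assigned is not given, so values of Hspe1 and Hspd1 are uncertain. The RNA counts of some well-translated genes were also low: the stem cell marker Pou5f1 had 4.89 to 6.88 RNA CPM against 1048 to 1395 footprint CPM. Whether the high ratios of Hspa8, Bag6 and Pfdn6, at 408, 8.75 and 2.44 RNA CPM, share this was not tested. These ratios are uncertain too. The same holds for Dnajc19, whose span overlaps the gene Fxr1 over 52.8% of its length. The gap between the members' footprint and RNA shares includes Hspa8 and is uncertain with it.

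**Figure D1:**
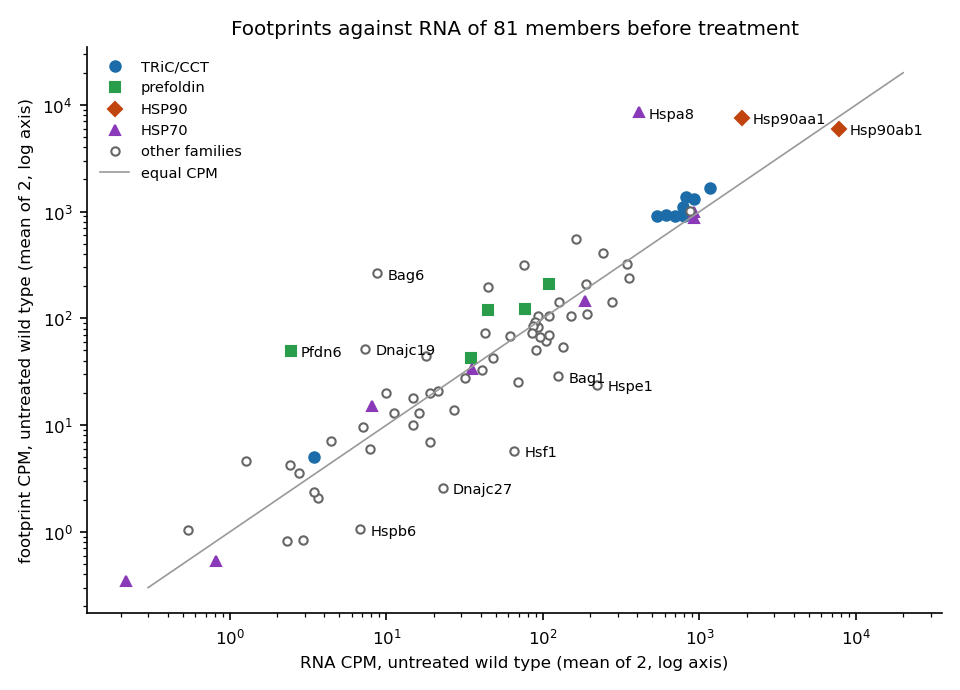
Footprint CPM against RNA CPM in untreated wild type for 81 members, each the mean of 2 libraries, on log axes. The line marks equal CPM. TRiC/CCT genes (blue) lie just above it, Hspa8, Bag6, Pfdn6 and Dnajc19 far above it, and Hsf1, Hspe1, Dnajc27 and Hspb6 far below.

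Addition of dTAG-13 for 1 h left most chaperone genes without a detected change. In wild-type cells 1 member, Bag1, fell in footprints and none rose. In Gcn2 knockout cells Dnajc17, Dnajc10, Dnajc13 and Pfdn4 fell and Hspb6 rose. Genes were called changed at a Benjamini-Hochberg adjusted p under 0.05 in edgeR's two-sided quasi-likelihood test, adjusted over all genes tested.

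Of 83 members tested in footprints, 1 (1.20%) was called in wild type, beside 4.88% of all 12267 genes in either direction and 1.94% called lower. In knockout cells 5 (6.02%) were called, beside 8.88% of all genes, with 3.16% of all genes called higher and 5.71% lower. Both shares lie below those of all genes. The members called changed when 1 library was left out. More were called in both genotypes with a replicate block within each genotype, as the last section gives. The shares of all genes called under these settings are not given here. At an unadjusted p under 0.05 there were 19 members in each genotype, 22.9% of the members, against 19.0% of all genes in wild type and 24.5% in knockout cells. The median member changed by -0.0007 on the log2 scale in wild type and by 0.05 in knockout cells, against -0.01 and 0.04 for all genes. The quartiles of the members, -0.24 and 0.19 in wild type and -0.27 and 0.19 in knockout cells, were also close to those of all genes, -0.21 and 0.21, and -0.21 and 0.26. The remaining 11 members in the footprint table had at most 8 counts in any library and were not tested. They include Hspa1a, an inducible HSP70 gene, with 0 to 2 footprint counts per library, and Dnajb7, with 0 in all 8.

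**Figure D2:**
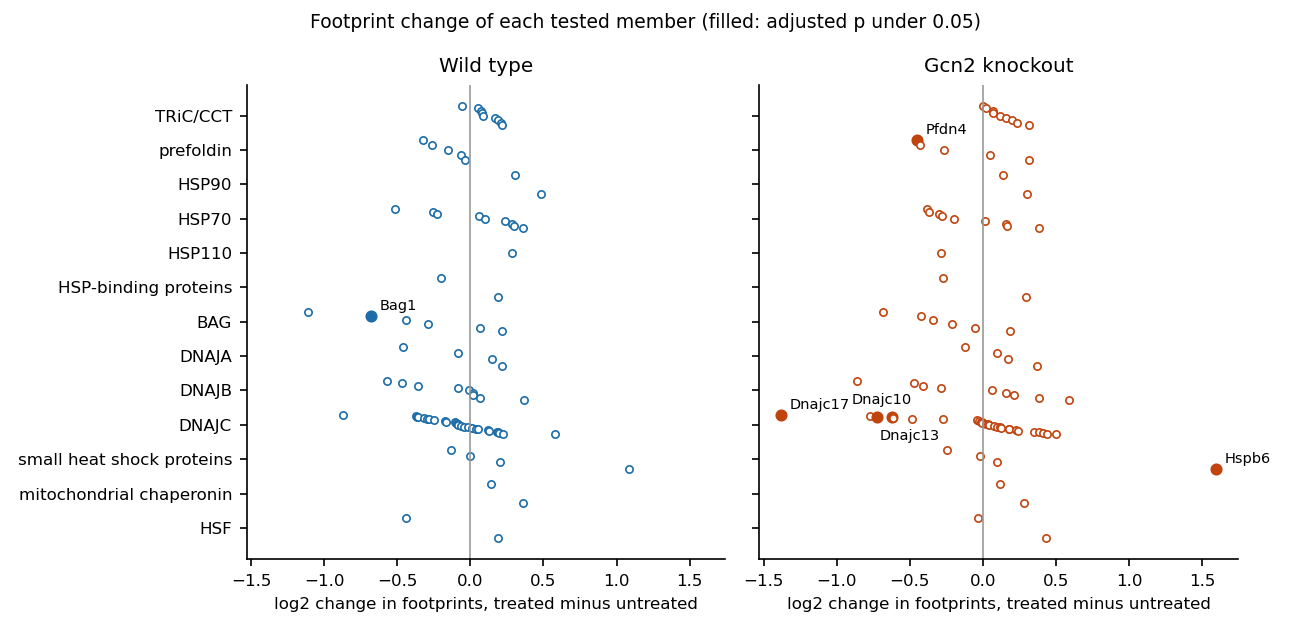
Log2 change in footprints after dTAG-13 of each tested member (1 point each), by family, in wild-type (left) and Gcn2 knockout cells (right). Filled points passed an adjusted p of 0.05: Bag1 in wild type, and Pfdn4, Dnajc17, Dnajc10, Dnajc13 and Hspb6 in knockout cells. Most members lie within 0.5 of 0.

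The HSP90 pair had more footprints in each treated library than in each untreated one of its genotype, but did not pass the main test. How many of all genes separate in this way was not counted, here or for the genes below. Hsp90aa1, the stress-inducible form, had 7866 and 7219 CPM in untreated wild type and 10928 and 10130 after treatment. The log2 difference was 0.48 (SE 0.144, edgeR adjusted p = 0.0770), and it passed with DESeq2 and without the filter on low counts. In knockout cells it had 8709 and 7079 CPM untreated and 10058 and 9417 treated, a difference of 0.30 (SE 0.143, edgeR adjusted p = 0.216). Hsp90ab1 had 5864 and 5987 CPM in untreated and 7318 and 7334 in treated wild type, a difference of 0.31 (SE 0.124, edgeR adjusted p = 0.197), and 0.14 (SE 0.124) in knockout cells. With a replicate block within genotype both HSP90 genes passed in wild type and Hsp90aa1 in knockout cells, though the letters name no shared batch. Hsp90aa1 alone held 0.800% and 0.759% of all footprint counts in untreated wild type and 1.05% and 1.01% after treatment. Its RNA stood at 1857 and 1881 CPM before and 1794 and 1823 after treatment, a log2 difference of -0.05.

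Among the HSP70 genes, none of the 9 tested was called in either genotype. Hspa8 had 12492 and 9314 footprint CPM in treated wild type, which overlaps the untreated 9972 and 7013, and the difference was 0.36 (SE 0.183, edgeR adjusted p = 0.310). In knockout cells the treated 12637 and 12703 lay above the untreated 10083 and 9368, with a difference of 0.38 (SE 0.183, edgeR adjusted p = 0.221). Hspa4, an HSP110-type exchange factor, differed by 0.28 in wild type and 0.16 in knockout cells, and Hspa9, the mitochondrial HSP70, by 0.30 and 0.01. Hspa14, a ribosome-associated HSP70, was at -0.23 and -0.28, and Hspa2 at 0.24 and -0.20. With a replicate block within genotype Hspa8, Hspa4 and Hspa9 passed in wild type, and Hspa8 and Hspa14 in knockout cells. The letters name no shared batch, so this block may not pair related libraries. The stress-inducible Hspa1b had 1 to 12 footprint counts per library, and SEs of 0.845 and 0.605 in footprints, so a change was not detectable at these counts. How reads fitting several genes were assigned is not given. The low counts of Hspa1b and its neighbour Hspa1a therefore do not show that their mRNA was scarce.

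Hsph1, the HSP110 exchange factor, pointed in opposite directions in the 2 genotypes. In wild type its footprints stood at 261 and 214 CPM untreated and 309 and 269 treated, and in knockout cells at 324 and 256 untreated and 233 and 243 treated. The log2 differences were 0.28 (SE 0.141) and -0.29 (SE 0.141). The test of the difference between these changes gave -0.57 (SE 0.200, edgeR adjusted p = 0.346), so the genotypes were not shown to differ in the main fit. Under a replicate block within genotype both changes and their difference passed, but the letters name no shared batch.

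**Figure D3:**
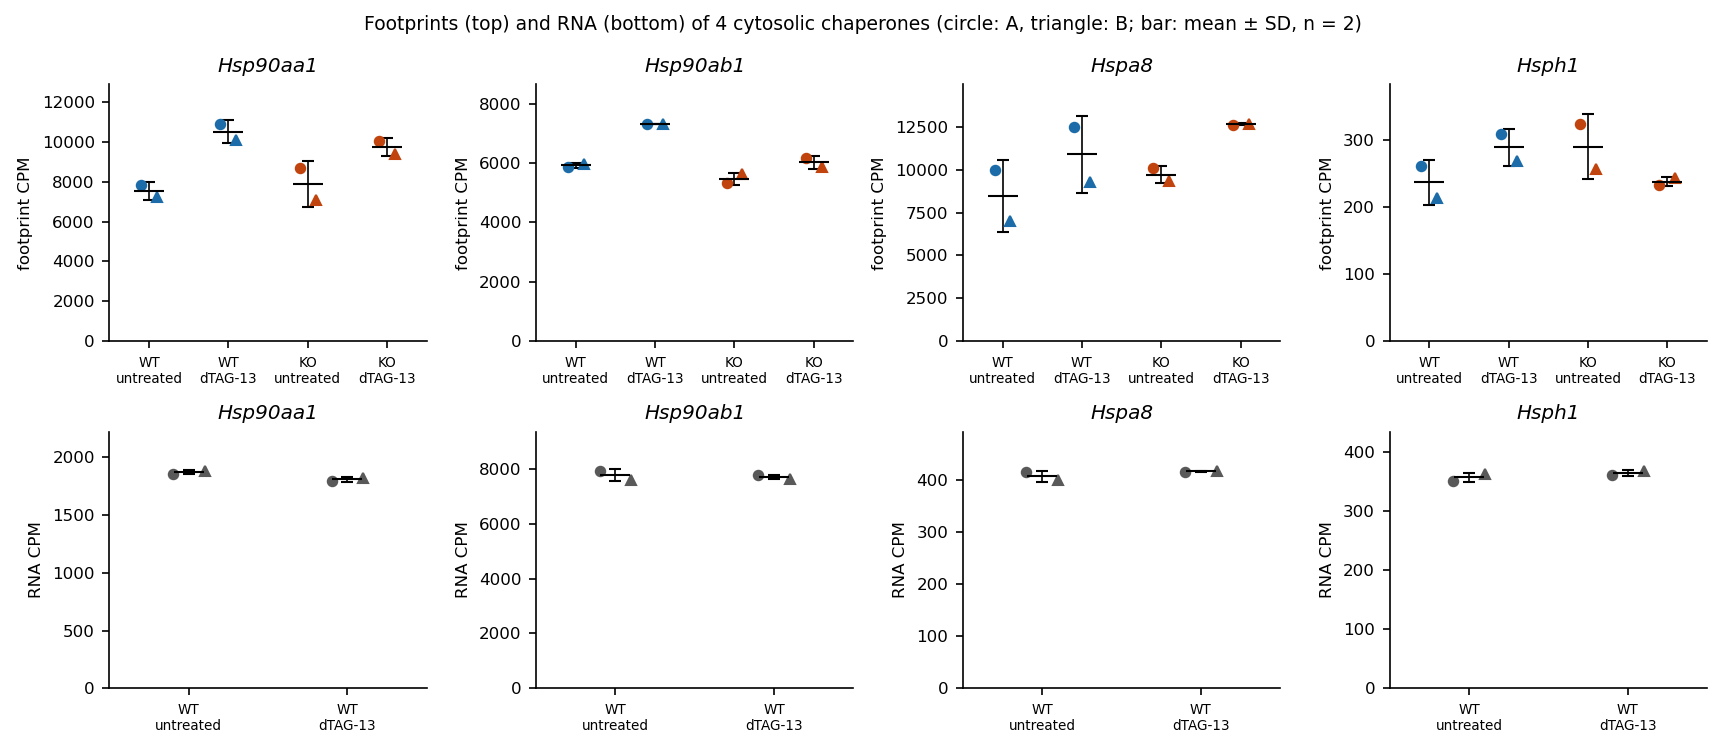
Footprint CPM in the 4 groups (top) and RNA CPM in wild type (bottom) of Hsp90aa1, Hsp90ab1, Hspa8 and Hsph1, with linear axes from 0. Circles are replicate A, triangles replicate B, bars the mean ± SD (n = 2). Treated footprints of both HSP90 genes lie above the untreated ones in each genotype, while the RNA differs by -0.05 to 0.03 on the log2 scale.

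In RNA, none of 84 members tested was called, beside 0.163% of 15955 genes, and DESeq2 also called 0. At an unadjusted p under 0.05 there was 1 member (1.19%), against 5.13% of all genes. That member was Dnajc7, a co-chaperone that passes clients between HSP70 and HSP90, at -0.10. The middle of the 84 was narrow, with quartiles of -0.05 and 0.04 on the log2 scale and a median of -0.01. Dnajb1, the J-domain partner most tied to heat shock, had 127 and 126 RNA CPM before and 126 and 118 after treatment, a log2 difference of -0.06. The highest difference was that of Hspa1b, with 5 and 5 RNA counts untreated and 11 and 10 treated, 1.22 on the log2 scale (SE 0.711, edgeR adjusted p = 0.939).

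Promoters were searched for the heat shock element, the DNA motif that HSF1 binds as a trimer, to show which members carry it next to their RNA values. RefSeq promoter windows of the GRCm38.p6 build, 250 bases before and 50 from each start, were found for 76 members. Members not searched include Hspa8, Hsp90aa1, Hsp90ab1, Hspa9 and Hsf1. The motif of 3 units was GAANNTTCNNGAA or, on the other strand, TTCNNGAANNTTC, each unit exact. It was present for 4 of the 76 members (5.26%) and for 179 of 27025 genes in the table (0.662%). The looser motif of 2 units, GAANNTTC or TTCNNGAA, which each longer match also holds, was present for 21 members (27.6%) and 17.0% of all genes. The 4 members with the longer motif were Dnajb6, Hspd1, Hspe1 and Hsph1, and the stretches are shown 5′ to 3′ on the strand of the gene with the motif in capitals. Hspd1 and Hspe1 are transcribed away from each other, and their stretches are the same bases read on opposite strands.
Dnajb6, chr5:29735846-29735870, plus strand: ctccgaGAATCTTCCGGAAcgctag
Hspe1, chr1:55088053-55088082, plus strand: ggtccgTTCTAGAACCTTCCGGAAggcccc
Hspd1, chr1:55088053-55088082, minus strand: ggggccTTCCGGAAGGTTCTAGAAcggacc
Hsph1, chr5:149636282-149636306, minus strand: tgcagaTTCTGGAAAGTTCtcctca
The motif runs from 46 to 34 bases before 1 listed start of Dnajb6, from 89 to 72 before that of Hspe1 and from 144 to 127 before a start of Hspd1. In Hsph1 it lies 15 to 27 bases past a listed start. In RNA these 4 members differed by -0.06 to 0.03 on the log2 scale after treatment. In footprints they differed by 0.02 to 0.36 in wild type and by -0.29 to 0.28 in knockout cells, with none called. A match describes letters in the window, not a site in use. Nor does a missing exact match show that the element is absent. The inducible genes Hspa1a and Hspa1b held only the motif of 2 units, and Dnajb1 held neither.

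Of the 41 J-domain genes among the 83 members tested, 3 were called in knockout cells, all lower, beside 5.71% of all genes called lower. So few calls do not set these genes apart. All 3 were in the DNAJC family, the group whose members share little beyond the J domain. Dnajc17, a nuclear protein linked to splicing, lies at chr2:119172500-119208838. Its footprints stood at 21.5 and 22.4 CPM in untreated and 9.55 and 7.42 in treated knockout cells, and at 23.1 and 16.8 against 17.1 and 14.2 in wild type. The groups overlap in wild type and are far apart in the knockout. The fall in knockout cells was -1.38 on the log2 scale (SE 0.203, edgeR adjusted p = 0.00138), a 2.60-fold fall, and it was called with each of the 4 knockout libraries left out in turn. In wild type it was -0.37 (SE 0.196), and the difference between the genotypes, -1.01 (SE 0.282, edgeR adjusted p = 0.248), did not pass, but did without the filter on low counts.

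Dnajc10 (chr2:80315446-80354055) encodes a disulfide reductase of the endoplasmic reticulum. It had 63.9 and 48.7 footprint CPM in untreated and 34.3 and 33.8 in treated knockout cells, a fall of -0.72 (SE 0.180, edgeR adjusted p = 0.0250). Dnajc13 (chr9:104151597-104263608) encodes an endosomal J-domain protein. It went from 140 and 124 CPM to 86.0 and 85.6, a fall of -0.62 (SE 0.130, edgeR adjusted p = 0.0110). In wild type the same genes were at -0.36 (SE 0.178) and -0.28 (SE 0.130), not called, and the differences between genotypes were -0.37 and -0.34 with edgeR adjusted p = 0.677 and 0.578. With 1 library left out, the knockout calls of Dnajc10 and Dnajc13 held only without untreated replicate B. Without untreated replicate A or either treated library their adjusted p rose to as much as 0.200 and 0.120. Of the 28 DNAJC genes tested, 10 were above and 18 below 0 in wild type, around a median of -0.09, and 16 above and 12 below in knockout cells, around 0.04.

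The J-domain genes Dnajb1, Dnajb12, Dnaja2, Dnaja1, Dnajb6 and Dnajc7 were not called. Dnajb1 had 177 and 110 footprint CPM in untreated and 115 and 93.0 in treated wild type, a difference of -0.47 (SE 0.199, edgeR adjusted p = 0.230) with overlapping groups. Dnajb12, named after its values were seen, was at -0.36 in wild type and -0.47 in knockout cells (SE 0.163, edgeR adjusted p = 0.0938), where it passed with DESeq2 and without the filter. Dnaja2 differed by 0.15 in wild type and by 0.37 in knockout cells (SE 0.107, edgeR adjusted p = 0.0503), where the treated 423 and 413 CPM lay above the untreated 338 and 311, and passed with DESeq2. Dnaja1 differed by 0.22 and 0.17, Dnajb6 by 0.02 and 0.15, and Dnajc7 by 0.20 and -0.01.

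Bag1 was the member called in wild type. It encodes a nucleotide exchange factor that links HSP70 to the proteasome, and lies at chr4:40936398-40948294. Its footprints stood at 29.0 and 28.2 CPM untreated and 17.65 and 18.01 treated, with the groups well apart. The fall was -0.68 on the log2 scale (SE 0.146, edgeR adjusted p = 0.0182), a 1.60-fold fall. Its RNA was at 128 and 123 CPM before and 115 and 120 after, a difference of -0.09. The fall of footprints beyond RNA, the change in translational efficiency, was -0.59 (SE 0.128, edgeR adjusted p = 0.0544). In knockout cells Bag1 had 25.01 and 29.2 CPM untreated and 19.9 and 20.3 treated, a difference of -0.43 (SE 0.143, edgeR adjusted p = 0.0825). The wild-type call was lost, with adjusted p up to 0.0845, without untreated replicate A or either treated replicate, and in a fit of the 4 wild-type libraries without the knockout ones.

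Bag5, Bag4 and Bag2 leaned the same way without passing in the main fit. Bag3 stayed near 0 and Bag6 lay above it. Bag5, built of several BAG domains, was at -0.44 in wild type and -0.34 in knockout cells, and Bag4 at -0.29 and -0.21. Bag2, an inhibitor of the ubiquitin ligase CHIP, was at -1.11 (SE 0.384, edgeR adjusted p = 0.123) and -0.69, at 1.38 to 4.70 CPM. Bag3, the partner of small heat shock proteins in autophagy, was at 0.06 and -0.05, and Bag6, which helps deliver tail-anchored membrane proteins, at 0.22 and 0.18. The family median was -0.36 in wild type and -0.28 in knockout cells over 6 genes. HSP70-binding protein Hspbp1 was at -0.20 and -0.27.

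No gene of the chaperonin TRiC/CCT was called, and its subunits stayed close together. Its 9 tested genes ranged from -0.05 (Cct2) to 0.21 (Cct5) in wild type, with a median of 0.08, and from -0.0013 (Cct6a) to 0.31 (Cct2) in knockout cells, with a median of 0.11. SEs were between 0.111 and 0.209. Tcp1, the first subunit, had 895 and 946 footprint CPM in untreated and 948 and 1001 in treated wild type, and 779 and 809 against 850 and 813 in knockout cells. Cct2 had 1111 and 1231 CPM in untreated and 1484 and 1429 in treated knockout cells, a difference of 0.31 (SE 0.117, edgeR adjusted p = 0.117). In RNA, the genes apart from the weakly expressed Cct6b (-0.45, 2.30 to 3.60 CPM) lay between -0.03 and 0.02.

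Prefoldin, which hands unfolded actin and tubulin to TRiC/CCT, had 1 call. Pfdn4 (chr2:170496428-170519070) had 41.8 and 39.1 footprint CPM in untreated and 30.9 and 28.2 in treated knockout cells. The fall was -0.45 (SE 0.126, edgeR adjusted p = 0.0411), and in wild type the difference was -0.26 (SE 0.126), from 43.0 and 42.3 to 36.1 and 35.1. The call was lost whichever of the 4 knockout libraries was left out, with adjusted p from 0.0723 to 0.330. The span of Pfdn4 overlaps the lncRNA gene Gm16796 over 55.5% of its length, that of Dnajc13 the lncRNA gene Gm46130 over 23.9%, and that of Dnajc17 the gene Gm14137 over 8.42%, and whether counting used strand is not given. Pfdn2 was at -0.43 (SE 0.143, edgeR adjusted p = 0.0805) in knockout cells, where it passed with DESeq2, and -0.32 in wild type. Pfdn6 was at -0.27 and -0.03, and Pfdn5 at 0.05 and -0.06. Pfdn1 went the other way in knockout cells, at 0.31, and was at -0.15 in wild type. Vbp1, the prefoldin subunit that the symbol rule does not take, had 188 and 154 CPM in untreated and 122 and 109 in treated knockout cells, a fall of -0.57 (SE 0.128, edgeR adjusted p = 0.0160).

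**Figure D4:**
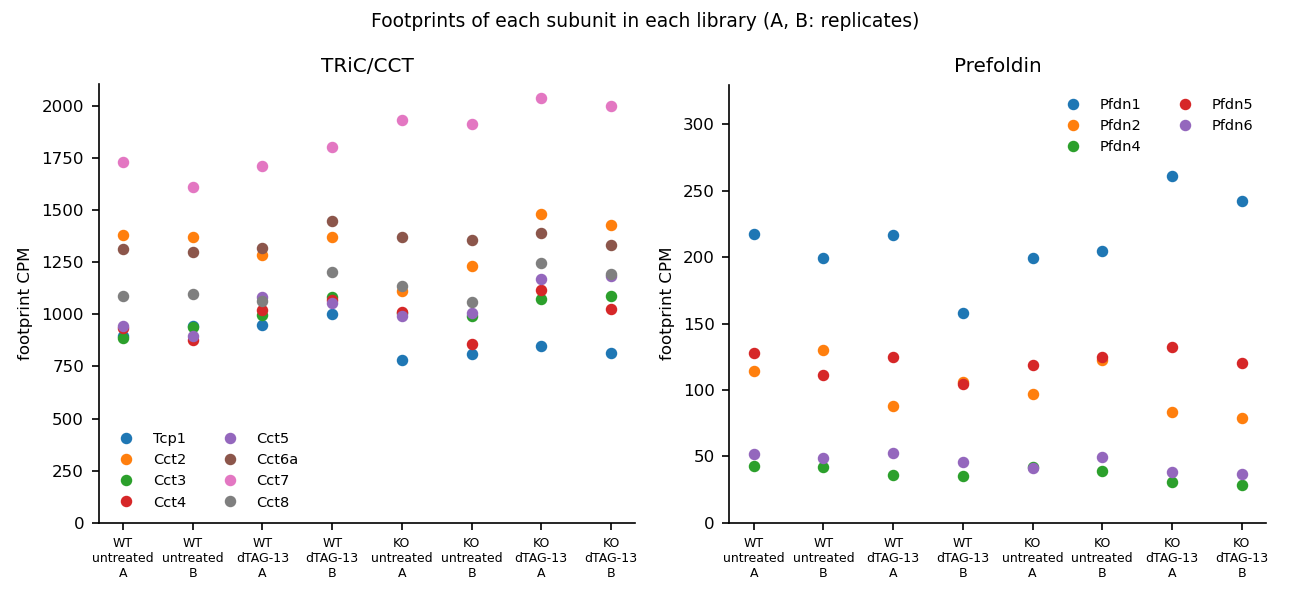
Footprint CPM of TRiC/CCT subunits (left) and prefoldin subunits (right) in each of the 8 footprint libraries, 1 point per gene and library, linear axes from 0. In the treated knockout libraries Pfdn2 and Pfdn4 sit below and Pfdn1 above their untreated levels.

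Hspb6, a small heat shock protein known mainly from muscle, was the member that rose. It lies at chr7:30552535-30555443 and was scarce, with 14 and 16 footprint counts in the untreated and 32 and 36 in the treated knockout libraries. In CPM these were 0.783 and 0.933 against 2.75 and 2.47, a rise of 1.59 on the log2 scale (SE 0.321, edgeR adjusted p = 0.00853). Wild type had 1.10 and 1.00 CPM untreated and 2.39 and 2.14 treated, a difference of 1.09 (SE 0.324, edgeR adjusted p = 0.0770). All 4 treated libraries lay above all 4 untreated ones. Its RNA, at 5.64 and 7.93 CPM before and 8.29 and 5.81 after, overlapped. The knockout call held without untreated replicate B and was lost without each of the other knockout libraries, with adjusted p up to 0.103. Hspb1, the abundant small heat shock protein here, was at 559 and 559 CPM before and 562 and 462 after treatment in wild type, and Hspb8, the partner of Bag3, differed by -0.0007 in wild type and -0.25 in knockout cells.

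**Figure D5:**
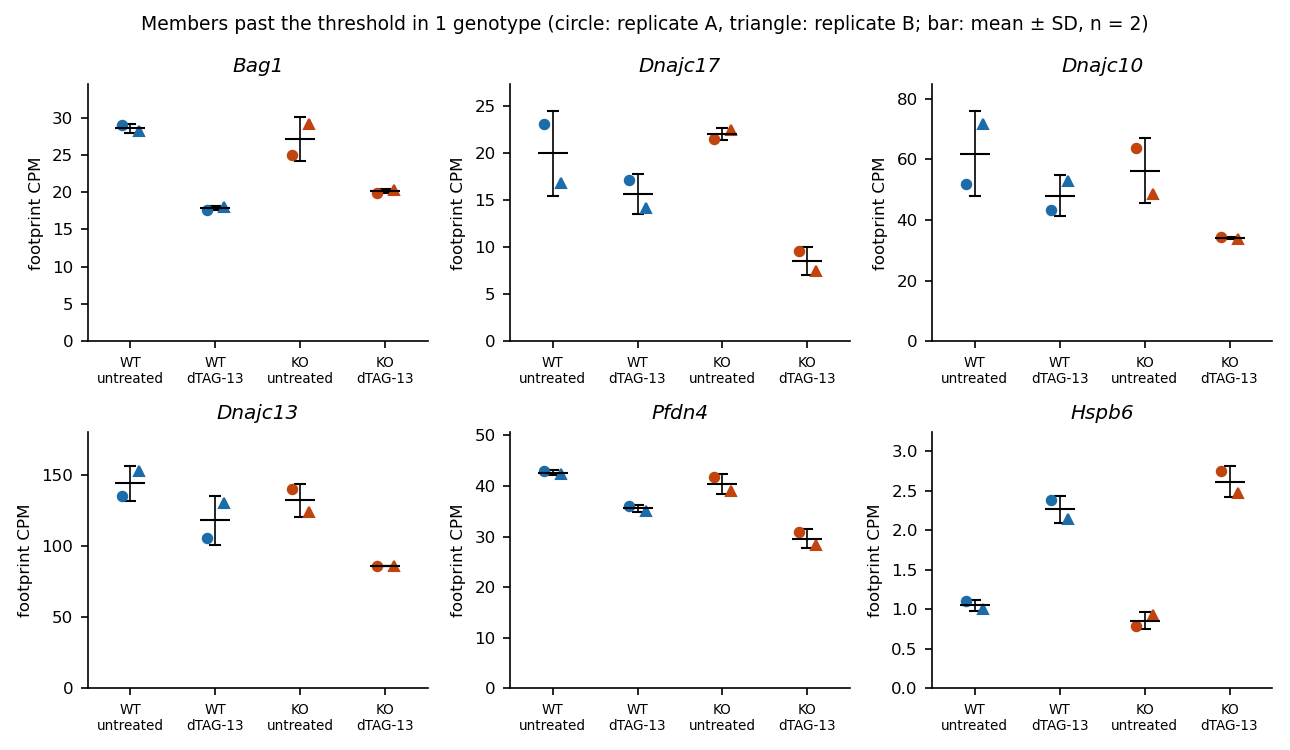
Footprint CPM in each library of the 6 members called in 1 genotype, linear axes from 0. Circles are replicate A, triangles replicate B, bars the mean ± SD (n = 2). In the genotype of the call, treated libraries of Bag1, Dnajc17, Dnajc10, Dnajc13 and Pfdn4 lie below and those of Hspb6 above both untreated ones.

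The heat shock factors themselves were not called. Hsf1 differed by -0.44 (SE 0.234) in wild type and -0.04 in knockout cells, at 3.97 to 6.25 footprint CPM, and Hsf2 by 0.19 and 0.43 (SE 0.159, edgeR adjusted p = 0.116). The mitochondrial chaperonin Hspd1 had 870 and 1136 CPM in untreated and 1164 and 1408 in treated wild type, a difference of 0.36 (SE 0.144, edgeR adjusted p = 0.193), and 0.12 in knockout cells. Hspe1 was at 0.14 and 0.28.

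No member responded differently in the 2 genotypes past the threshold in the main fit. The interaction of genotype and treatment called 0 of 83 members, beside 0.0489% of all genes, and DESeq2 also called 0. Without the filter on low counts Dnajc17 was called. With a replicate block within each genotype Dnajc17, Dnajc21, Hsph1 and Pfdn1 were called, though the letters name no shared batch. At an unadjusted p under 0.05 there were 8 members (9.64%), against 10.02% of all genes. Untreated knockout and wild-type cells also differed in 0 members by edgeR and by DESeq2, beside 0.00815% of all genes, which is Eif2ak4 alone. At an unadjusted p under 0.05 there were 7 members (8.43%), against 5.98% of all genes. The lead among them was Dnajc3, an inhibitor of eIF2α kinases, with 85.9 and 52.6 CPM in knockout against 43.8 and 40.8 in wild type, a difference of 0.71 (SE 0.192, edgeR adjusted p = 0.567). Without the filter on low counts Dnajc3 was called.

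Translational efficiency in wild type, tested as the interaction of assay and treatment, called 0 of 84 members, beside 1.47% of 12888 genes. DESeq2 called 2, Bag1 and Hsp90aa1, and the share of all genes it called is not given here. At an unadjusted p under 0.05 edgeR had 11 members (13.1%), against 14.2% of all genes. Hsp90aa1 was at 0.53 (edgeR adjusted p = 0.107). All 5 prefoldin genes were below 0, with a median of -0.20, and 8 of 9 TRiC/CCT genes above it, with a median of 0.10, none of them called.

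Folding genes outside the symbol rule were counted as lists. Of 28 co-chaperones listed, 27 were tested in footprints. None was called in wild type, beside 4.88% of all genes, and their median was -0.10. In knockout cells 4 were called lower, beside 5.71% of all genes, and the median was -0.11. Besides Vbp1 these were Fkbp4, an HSP90 immunophilin (-0.52), Sgta, which works with Bag6 (-0.46), and Pdcl, a phosducin-like protein that works with TRiC/CCT (-0.65), with edgeR adjusted p between 0.00780 and 0.0438. Of 7 mitochondrial folding and protease genes Clpb was called, lower in knockout cells (-0.61). Ubb, Hmox1, Serpinh1 and Cryab, heat shock genes outside the families, were not called in footprints of either genotype.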

How the data were processed

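The authors deposited raw counts per gene symbol, in 1 table for footprints and 1 for RNA. The submitters' processing notes name the mm10 build and the tools HISAT2 2.1.0, cutadapt and CASAVA 1.4. For the counting tool, strand setting and shared reads nothing is given in the sources used here. Each column was assigned by genotype, treatment and letter. For treated knockout B the label repeats the column name of A, and the letter of its title was used.

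Counts were fitted with edgeR 4.0.16 in R 4.3.3: filterByExpr with a minimum count of 10, TMM scaling, robust quasi-likelihood, Benjamini-Hochberg over all genes. The 8 footprint libraries shared 1 fit by group and the 4 RNA libraries another. A model over both assays in wild type tested the interaction of treatment with assay for translational efficiency, with TMM within each assay. Symbols were joined between tables as written (20050) or through synonyms (84), and 1900 were not joined. Footprints had a common biological coefficient of variation of 0.116 and RNA one of 0.0434. SEs come from the log2 change and its F statistic, and CPM use TMM library sizes. The code was tested on simulated data. Alternatives were no filter, RLE scaling, DESeq2 1.42.0, replicate blocks, each genotype alone and each library left out.

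Members, lists and tests were chosen with earlier results of these data known. Named genes were tested members outside the DNAJ families, and DNAJ genes that were called, among the 3 highest or lowest of a comparison, or Dnaja1, Dnaja2, Dnajb1, Dnajb6 and Dnajc7. Dnajc3, Dnajc19, Dnajb12 and other members named for their compartment were added after their values were seen. Positions are gene spans in RefSeq GRCm38.p6, in which all 95 members were found. Levels per length and stop codons were not analysed here. Results of some genes are not reported here.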

Additional observations from a re-analysis of the deposited data

How the results depend on the processing

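With 2 replicates per group, counts of called members near the threshold were unstable, and no member reversed its direction among those compared. RLE scaling gave the same 6 counts. In wild-type footprints, where 1 member was called, there were 5 without the filter on low counts, 2 with DESeq2, 0 with the 4 wild-type libraries fitted alone, and 0 to 5 with each library left out, the 5 without untreated replicate B. In knockout footprints, where 5 were called, there were 7 without the filter, 7 with DESeq2, 10 with the knockout libraries alone, and 1 to 4 with each library left out, the 4 without untreated replicate B. The lone library left in a group is then assumed to vary like the others. For the difference between genotypes and for the untreated genotypes, 1 member each was called without the filter, against 0. For RNA leaving out libraries gave 0 to 2, the 2 without untreated replicate B. For translational efficiency there was 1 without the filter, 2 with DESeq2, and 0 to 4 with libraries left out, the 4 without untreated footprint replicate B and 1 without A. The cause was not tested. Hsp90aa1 in wild type passed without the filter, with DESeq2 and under both replicate blocks.

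The replicate letters name no shared batch. With the letter as a replicate block the called members were 2 in wild type, 8 in knockout cells and 1 for translational efficiency. With a replicate block within each genotype they were 19, 24 and, for the difference between genotypes, 4 (Dnajc17, Dnajc21, Hsph1 and Pfdn1). The shares of all genes called under the settings of this section are not given here. Its counts therefore cannot be read as particular to the members. The 19 in wild type include Hsp90aa1, Hsp90ab1, Hspa8, Hspa9 and Hspd1. The other counts did not move under the block.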
